A study of Danio rerio with 11 samples.

Results

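Livers of zebrafish larvae in which methylation had been inhibited along 2 routes, a mutation and a drug, were compared gene by gene. The mutant group held 3 arrays (samples 3, 4 and 6) of larvae with the genotype ahcy -/- that received vehicle. The azacytidine group held 4 arrays (samples 1, 2, 5 and 6) of ahcy +/+ larvae that received 1 mM azacytidine. Another 4 arrays (samples 1, 2, 4 and 8) of ahcy +/+ larvae that received vehicle give a reference level and are tested against neither group. The difference is thus between 7 of the 11 arrays of the series, while all 11 share the estimate of the spread behind its errors and p-values. Vehicle or drug was injected into the yolk 2 days after fertilisation, and livers were taken with forceps at 4 days. The groups were chosen by their sample titles. Genotype and agent both differ between mutants and azacytidine-treated larvae, so every difference below is one between the 2 models and has no further split. The sources used here give neither the lesion in ahcy nor the number of larvae behind a sample, and the p-values therefore rest on the spread between arrays, which may be technical.

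S-adenosylmethionine gives its methyl group to DNA, RNA, proteins and small molecules, and each transfer leaves S-adenosylhomocysteine, which inhibits methyltransferases until the enzyme encoded by ahcy breaks it down. Loss of that enzyme bears on methyl transfer of every kind. Azacytidine is a cytidine analogue that cells build into RNA and DNA, and in DNA it traps DNA methyltransferases. The larval liver is the source of most plasma proteins and the main site of amino acid, fat and bile acid metabolism.

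Levels are log2 values, so a difference of 1 is a factor of 2, and each difference is mutant minus azacytidine with its standard error from limma. A probe set was called at an adjusted p under 0.05. The array medians lay at 6.13 to 6.17 in mutants, 5.89 to 5.97 with azacytidine and 5.97 to 6.14 in controls. Mutant arrays correlated with each other at 0.917 to 0.951 and azacytidine arrays with each other at 0.932 to 0.963, while pairs of 1 mutant and 1 azacytidine array had correlations of 0.760 to 0.870, all taken over probe sets, which are no independent replicates. A measure often taken for RNA integrity is the 3′ minus the 5′ control probe set, here for the skeletal muscle actin acta1. It was 5.70, 5.59 and 6.21 in mutants, against 4.02, 3.45, 1.88 and 2.84 with azacytidine. It lay at 3.16, 3.38, 4.87 and 4.92 in controls. The mutant arrays were all above the azacytidine arrays in this measure. The 3′ minus the middle probe set of the same control went the other way, at 2.89, 1.85 and 1.8 in mutants, against 3.8, 3.66, 3.74 and 3.48 with azacytidine. Muscle genes were also higher in mutants, as given below. Whether either measure follows RNA integrity or the level of the muscle transcript was not tested. The part of either measure in the differences below was not tested.

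Of 12784 probe sets, 2329 (18.2%) were higher and 1424 (11.1%) lower in mutants than in azacytidine-treated livers, 29.4% in all. At an unadjusted p under 0.05 the counts were 3232 and 1934. The mutant arrays all lay above the azacytidine arrays for 3007 probe sets (23.5%) and all below them for 1761 (13.8%). Among called probe sets the median size of the difference was 1.41 for those higher and 1.29 for those lower, and 141 higher and 112 lower ones differed by more than 3. The split depends on how arrays are scaled: 62.1% of calls were higher in mutants on the deposited scale, 44.1% with each array centred on its median and 49.8% after cyclic loess. The median over all probe sets was 0.14 on the deposited scale, -0.08 after centring and -0.02 after loess, so small differences depend on the scale. Without mutant 6 the counts were 1408 higher and 912 lower, the lowest of the 11 fits that each left out 1 array.

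**Figure D1:**
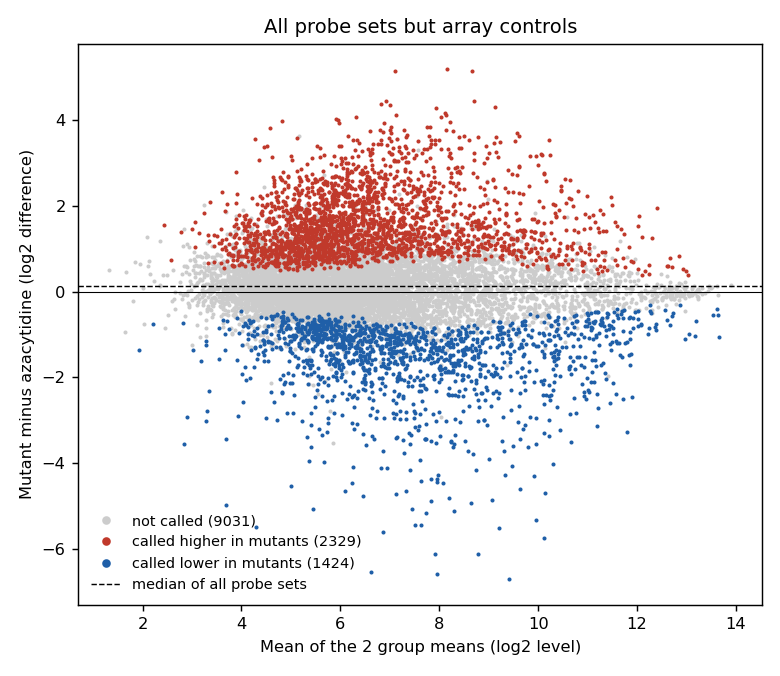
Each point is 1 of 12784 probe sets, with the mean of the mutant and azacytidine group means on the x axis and the mutant minus azacytidine difference on the y axis, both log2. The 2329 called higher in mutants are red and the 1424 called lower are blue; the largest differences in either direction are of probe sets called lower, down to -6.70.

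The check of the tissue came out unevenly. A hepatocyte list of 35 measured genes averaged 10.08, 10.01 and 9.07 in mutants 3, 4 and 6, against 11.91, 12.12, 11.86 and 11.94 with azacytidine and 11.47 to 11.80 in controls. Of these 35 genes, 0 were higher and 32 lower in mutants, with a median of -1.86. fabp10a, the liver fatty acid binding protein by which zebrafish hepatocytes are usually marked and which was picked for this check with its values known, stood at 11.66, 10.25 and 8.6 in mutants, against 13.59, 13.39, 13.50 and 13.28 with azacytidine. Hepatocyte transcripts were thus abundant on every array and lower on each mutant array than on any azacytidine array. In these bulk livers, fewer cells of a type and less RNA per cell cannot be told apart.

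Markers of epidermis, skeletal muscle and neural tissue moved the other way. A list of 61 epidermis genes averaged 8.30, 8.58 and 9.53 in mutants, against 6.4, 7.11, 6.81 and 7.24 with azacytidine, and 42 of them were higher and 0 lower (median 1.90). A list of 55 skeletal muscle genes averaged 8.64, 8.97 and 8.99 in mutants, against 7.23, 7.49, 6.97 and 7.23 with azacytidine, with 41 higher and 3 lower (median 1.72). A list of 62 neural genes averaged 6.97, 7.11 and 7.56 in mutants, against 5.17, 5.53, 5.40 and 5.35 with azacytidine, with 39 higher and 1 lower (median 1.88). In these 3 lists the mutant arrays lay above every azacytidine array. The neural means of controls 4 and 8, at 8.21 and 7.21, lay in or above the mutant range, whereas controls 1 and 2 were at 6.05 and 5.64. The neural count dropped to 22 without mutant 4 and to 17 without mutant 6.

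The average of the neural, muscle and epidermis lists was 7.97, 8.22 and 8.69 in mutants, against 6.27, 6.71, 6.39 and 6.60 with azacytidine, and 6.85, 6.87, 7.90 and 7.62 in controls. With that average as a covariate in the fit, 0 probe sets were higher and 14 lower, and 442 and 728 had an unadjusted p under 0.05. Of the 14, 13 were among the 1424 lower ones of the fit without it. They include crp, crp3, ahsg1, a2m2f and dhrs11b.2, and of the 35 hepatocyte genes 2 were called. The mutant and azacytidine ranges of the covariate do not overlap, so in that fit the marker levels and the group can hardly be told apart. With so few calls in all, a list with few or no calls in that fit does not stand out. Of 17 cartilage and fibroblast genes, 11 were higher (median 2.00). Of 20 exocrine pancreas genes 1 was higher and 0 lower (median -0.26), shares below the 18.2% and 11.1% of all probe sets. Of 23 intestine genes, 2 were higher and 1 lower, where 18.2% and 11.1% of all probe sets were. Their median was 0.12, or -0.10 after centring, and the lower count was 0 without mutant 6 and 2 without azacytidine 5.

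**Figure D2:**
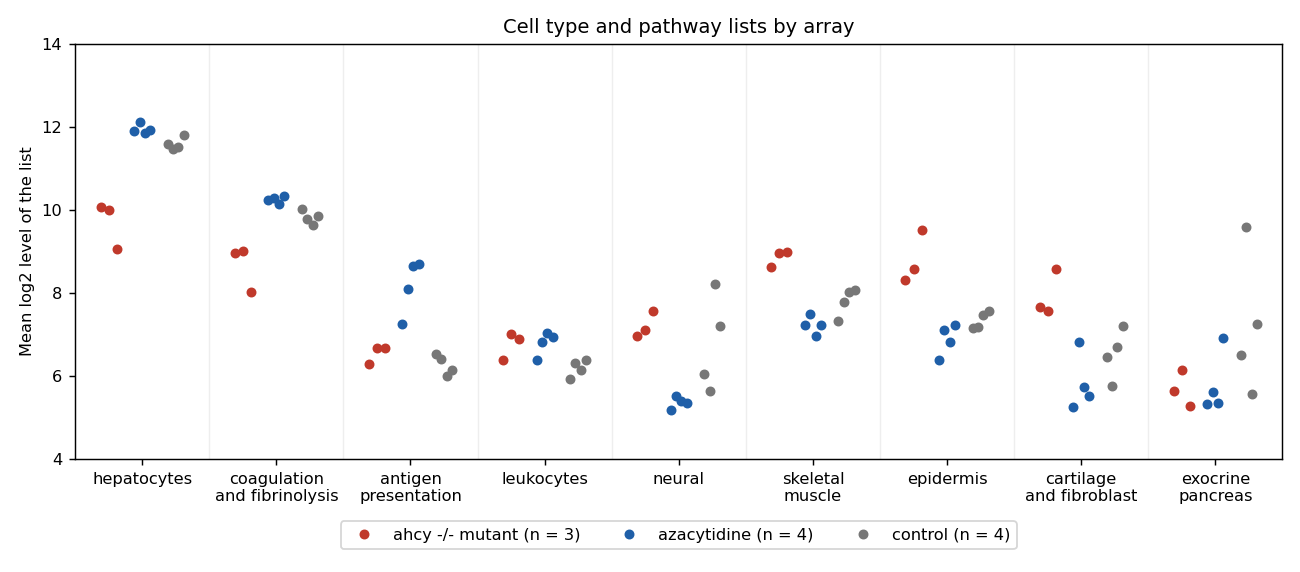
Mean log2 level (y axis) of 9 gene lists on each array, mutants in red, azacytidine in blue and controls in grey, 1 point per array. Hepatocyte and coagulation means are lowest in mutants, neural, muscle and epidermis means are higher in mutants than with azacytidine, and antigen presentation is highest with azacytidine. Leukocyte means of mutants and azacytidine overlap, above those of controls.

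The largest differences were in plasma protein genes, which were lower in mutants. crp, a pentraxin of the acute phase, stood at 5.65, 6.27 and 6.24 in mutants, against 12.75, 13.08, 12.72 and 12.48 with azacytidine and 11.74 to 12.51 in controls. The 2 groups lay far apart and azacytidine close to controls. The difference was -6.70 ± 0.23 (SE; adjusted p = 2.3e-08), 104-fold lower. Its relative crp3 was 6.90, 6.43 and 8.57 in mutants, against 12.55, 12.68, 12.76 and 12.52 with azacytidine. The difference of -5.33 ± 0.38 was -5.96 without mutant 6 and -4.89 without mutant 4. ahsg1, which encodes a fetuin of plasma, was 4.69, 5.23 and 4.63 in mutants, against 11.25, 10.97, 10.94 and 10.70 with azacytidine. Its control arrays, at 8.61, 8.62, 9.22 and 9.92, all lay between the groups, and the difference was -6.12 ± 0.33 (adjusted p = 1.0e-06).

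Other secreted liver products followed. igfbp1b, an insulin-like growth factor binding protein, was 7.61, 6.14 and 5.65 in mutants, against 11.58 to 12.21 with azacytidine (difference -5.50 ± 0.48). a2m2f, of the alpha-2-macroglobulin family of protease inhibitors, was 4.61, 5.21 and 4.55 in mutants, against 9.95 to 10.48 with azacytidine (-5.43 ± 0.35). In both genes the azacytidine arrays lay near the controls, which spanned 10.17 to 12.16 for igfbp1b and 8.90 to 10.36 for a2m2f. Even serpina1l, an antiprotease near the top of the scale, where differences are compressed, was 12.78, 12.78 and 12.41 in mutants, against 13.72, 13.75, 13.61 and 13.70 with azacytidine (-1.04 ± 0.09). Of 38 acute phase and plasma protein genes, 26 were lower and 1, apodb, an apolipoprotein D gene that is also on the epidermis list, was higher (3.18 ± 0.70; 4.22 without mutant 3 and 2.43 without mutant 6), with mutant 3 inside the azacytidine range. The higher count was 2 without azacytidine 6.

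Complement and coagulation genes of the liver were lower in mutants as well. c4b, a complement component, was 6.90, 7.40 and 5.61 in mutants, against 11.22, 11.52, 11.45 and 11.79 with azacytidine and 9.19 to 9.93 in controls (-4.86 ± 0.37). masp2, the protease that starts the lectin pathway, was 6.52, 5.98 and 4.87 in mutants, against 10.68, 10.61, 10.46 and 10.63 with azacytidine (-4.80 ± 0.36). The azacytidine arrays lay above all controls for both genes. c3a.1 (-3.75 ± 0.41) had another probe set with a difference of 0.02, which was not called. c8g had a difference of -2.83, which is -1.89 when levels under an array's 10th percentile are set at it. Of 17 complement genes, 9 were lower, where 18.2% of all probe sets were higher and 11.1% lower. The higher ones numbered 3 and were 0 without mutant 6 or azacytidine 1, and 1 without mutant 3, azacytidine 2 or azacytidine 5. They include cfd, complement factor D, at 6.72, 9.18 and 9.15 in mutants, against 6.21, 6.78, 7.0 and 6.56 with azacytidine. Mutant 3 lay within the azacytidine range, and the call of cfd (1.71 ± 0.50) was lost without mutant 4, mutant 6 or azacytidine 1, while without mutant 3 the difference was 2.53.

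Of 16 coagulation and fibrinolysis genes, 14 were lower and 0 higher (median -1.20). f7i, a factor VII gene, was 6.84, 7.39 and 5.76 in mutants, against 10.66, 10.81, 11 and 10.83 with azacytidine (-4.16 ± 0.33). The azacytidine arrays lay in the range of the controls, 10.45 to 11.08. f7 differed by -3.07 ± 0.37 and kng1, kininogen, by -2.43 ± 0.30. lman1, a receptor that carries clotting factors out of the endoplasmic reticulum, was 8.13, 8.03 and 6.95 in mutants, against 10.23, 10.33, 10.18 and 10.77 with azacytidine. All azacytidine arrays lay above the controls, at 9.32 to 9.64, and the difference was -2.67 ± 0.29.

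**Figure D3:**
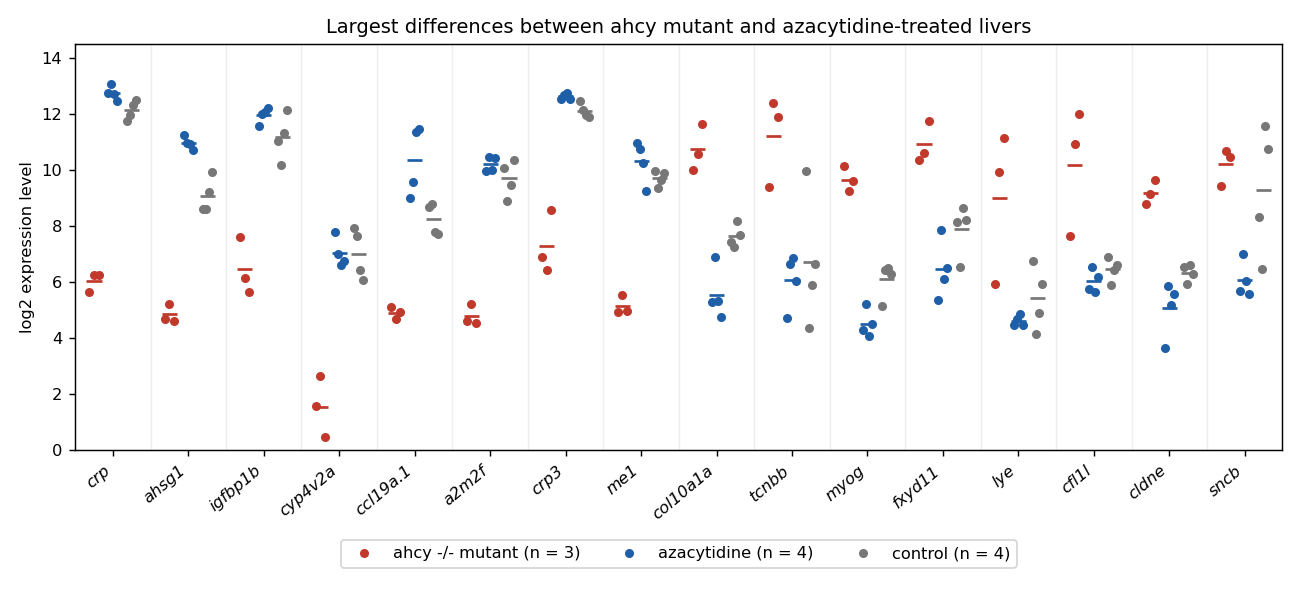
Log2 level (y axis) of the 8 genes with the largest lower and the 8 with the largest higher called difference, 1 point per array and bars at group means. Mutants (red) lie at 4.55 to 8.57 for crp, ahsg1, igfbp1b, ccl19a.1, a2m2f, crp3 and me1, where azacytidine (blue) is at 9.0 or above; for tcnbb, lye and sncb control arrays (grey) reach into the mutant range.

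Genes of the secretory pathway, through which these proteins leave the cell, were lower in mutants too. Of 64 genes of ER stress and protein folding, 37 were lower and 0 higher (median -0.91). hspa5, the main chaperone of the endoplasmic reticulum, was 9.86, 9.88 and 9.41 in mutants, against 12.50, 12.05, 12.02 and 12.28 with azacytidine and 11.03 to 12.01 in controls (-2.50 ± 0.24). Each azacytidine array lay above every control. dnajc3a, a co-chaperone of hspa5, was 6.24, 7.20 and 6.72 in mutants, against 10.14 to 10.76 with azacytidine (-3.72 ± 0.35). tram1, of the translocation channel, differed by -2.98 ± 0.21 and mcfd2, the partner of lman1, by -2.06 ± 0.17. With the marker covariate, 1 of the 64 genes was called, where 14 of all 12784 probe sets were.

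Enzymes of hepatic metabolism were among the genes that fell in mutants. me1, the malic enzyme that supplies NADPH for fat synthesis, was 4.94, 5.54 and 4.98 in mutants, against 10.98, 10.76, 10.25 and 9.27 with azacytidine (-5.16 ± 0.37). ldhbb, a lactate dehydrogenase, was 4.61, 4.67 and 5.45 in mutants, against 9.89, 9.51, 10.22 and 10.31 with azacytidine, and all controls, at 7.29 to 9.21, lay in between (-5.07 ± 0.42). tdo2a, which opens the tryptophan breakdown pathway, was 6.03, 5.32 and 4.85 in mutants, against 10.37, 10.45, 10.76 and 9.54 with azacytidine (-4.88 ± 0.43). For tdo2a the azacytidine arrays lay within or below the control range, 9.76 to 11.49. chia.6, a chitinase, differed by -5.12 ± 0.34 and dhrs11b.2, of the short-chain dehydrogenase family, by -4.93 ± 0.24. cyp4v2a, a P450 enzyme, was 1.57, 2.65 and 0.46 in mutants, against 7.80, 7.01, 6.60 and 6.75 with azacytidine. Its mutant levels lay at the low end of the scale, and the difference of -5.48 is -2.60 when levels under the 10th percentile are set at it.

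Of 50 genes of sugar metabolism, 13 were higher and 14 lower, where 18.2% and 11.1% of all probe sets were. The median was 0.09, which was -0.13 after centring and -0.11 after loess. pklr, the liver form of pyruvate kinase, was 7.98, 6.25 and 6.14 in mutants, against 10.66, 10.36, 11.20 and 10.03 with azacytidine. Its difference was -3.77 ± 0.42, or -4.37 without mutant 3 and -3.45 without mutant 6. pgm1, phosphoglucomutase, differed by -2.34 ± 0.19. Higher were aldoab, a muscle aldolase that is also on the muscle list, at 11.21, 11.57 and 11.71 in mutants, against 9.13, 9.22, 7.89 and 8.64 with azacytidine (2.78 ± 0.35). pfkma, the muscle phosphofructokinase, was higher by 1.37 ± 0.25 and hk1, a hexokinase of many tissues whose probes may be shared with other transcripts, by 2.34 ± 0.46. The muscle means given above were higher in mutants too. Since aldoab is itself on that list, this is no separate observation for it, and a part of muscle in pfkma and hk1 was not tested.

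Of 48 genes of fatty acid oxidation and the peroxisome, 30 were lower (19 without mutant 6) and 2 higher, with a median of -0.93. The 2 became 0 without mutant 6 and 1 without mutant 3, any 1 azacytidine array, or controls 1, 2 or 8. phyh, which starts alpha-oxidation of branched fatty acids, was 6.68, 6.80 and 6.39 in mutants, against 9.40, 9.88, 9.68 and 9.61 with azacytidine and 9.34 to 9.92 in controls (-3.02 ± 0.23). Azacytidine and control levels overlapped, and the mutants lay below both. pex3, a peroxisome assembly factor, differed by -2.13 ± 0.24 and cpt2, of the mitochondrial carnitine shuttle, by -2.31 ± 0.29. hsd17b4, a multifunctional peroxisomal enzyme, differed by -2.25 ± 0.25, but another of its probe sets, at -0.29, was not called.

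In fat synthesis and lipoproteins, 6 of 42 genes were higher and 16 lower, where 18.2% and 11.1% of all probe sets were. lipca, hepatic lipase, was 4.59, 3.36 and 3.34 in mutants, against 6.85, 9.24, 8.36 and 9.21 with azacytidine and 4.18, 4.94, 4.59 and 5.59 in controls. Here the azacytidine arrays stood apart from both other groups (-4.65 ± 0.56). lpla, lipoprotein lipase, was low in mutants, at 7.96, 8.2 and 7.58, against 10.56, 10.33, 9.84 and 10.35 with azacytidine and 9.60 to 10.48 in controls (-2.36 ± 0.26). The cholesterol pathway resembled lipca in part. hmgcs1, which makes HMG-CoA, was 6.81, 6.80 and 5.77 in mutants, against 8.56, 9.12, 9.83 and 9.71 with azacytidine and 7.69 to 8.61 in controls (-2.85 ± 0.39). msmo1, a demethylating sterol oxidase, was 5.31, 5.49 and 5.19 in mutants, against 6.28, 7.56, 8.84 and 8.56 with azacytidine and 5.0 to 6.59 in controls (-2.48 ± 0.54). Of 15 cholesterol synthesis genes, 6 were lower, among them nsdhl (-1.80 ± 0.37) and mvk (-1.39 ± 0.33). The only higher one, lbr, a sterol reductase of the nuclear envelope (1.27 ± 0.36), lost its call without mutant 4 or azacytidine 1.

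For bile acids, 1 of 10 genes was higher and 4 were lower, where 18.2% and 11.1% of all probe sets were. The lower ones include hsd3b7 (-2.83 ± 0.32) and cyp27a1.1 (-2.03 ± 0.32), enzymes of bile acid synthesis. Another was slc27a2a, of an acyl-CoA synthetase family, at 6.38, 5.15 and 5.10 in mutants, against 9.17, 8.80, 7.91 and 10.11 with azacytidine (-3.45 ± 0.50). Of 48 amino acid breakdown genes, 26 were lower and 0 higher, with a median of -0.88. hgd, of tyrosine breakdown, differed by -2.30 ± 0.25, gcat, of threonine breakdown, by -2.10 ± 0.24, and mccc2, of leucine breakdown, by -1.38 ± 0.18. Of 47 genes of xenobiotic metabolism, 22 were lower and 3 higher, and the count of higher ones was 0 without mutant 6, 1 without azacytidine 1, 2 or 5, and 5 without azacytidine 6. ces2a, a carboxylesterase, was 7.44, 8.99 and 6.88 in mutants, against 12.17, 12.24, 12.23 and 11.66 with azacytidine. Its difference was -4.30 ± 0.40, or -4.92 without mutant 4 and -3.86 without mutant 6. cyp2x7, a P450 gene, differed by -3.38 ± 0.35. The hepatocyte mean given above, lower in mutants, moved with these lists. The hepatocyte list itself holds enzyme genes of such pathways, tdo2a among them, so this is no separate observation. With the marker covariate 0 of the 10, 0 of the 48 and 1 of the 47 genes were called. Of all 12784 probe sets, 14 were called in that fit.

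The methyl cycle itself was compared because the mutation lies in it. ahcy was 12.11, 11.47 and 11.50 in mutants, against 12.34, 12.34, 12.06 and 12.61 with azacytidine and 12.30 to 12.47 in controls. The level of mutant 3 lay within the azacytidine range. The difference was -0.64 ± 0.16 (adjusted p = 0.013), and its call was lost without mutant 4 or mutant 6. Since the lesion is not given, this transcript level is no check of the genotype. Of 27 methionine cycle and S-adenosylmethionine-using enzymes, 13 were lower, which became 7 without mutant 6, and the median was -0.44. gnmt, the liver methyltransferase that uses up excess S-adenosylmethionine, was 8.47, 8.52 and 7.86 in mutants, against 11.05, 10.91, 10.89 and 10.90 with azacytidine and 10.31 to 11.33 in controls (-2.65 ± 0.26). gamt, which makes creatine, was 11.95, 10.29 and 10.77 in mutants, against 12.72, 12.66, 12.62 and 12.84 with azacytidine (-1.71 ± 0.28). For both, azacytidine and controls lay close together.

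mtr, methionine synthase, differed by -1.63 ± 0.25. hnmt, histamine methyltransferase, differed by -2.15, or -1.50 with low levels set at the 10th percentile. The higher gene of this list, ahcyl1, a relative of ahcy, was 9.18, 8.96 and 9.19 in mutants, against 6.76, 8.90, 7.46 and 7.28 with azacytidine and 8.37 to 9.09 in controls. Azacytidine 2 lay near the mutants, and the call (1.51 ± 0.42) was lost without mutant 3, mutant 6 or azacytidine 1.

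dnmt1, the maintenance DNA methyltransferase that azacytidine traps, was 7.46, 7.63 and 6.75 in mutants, against 6.43, 7.41, 6.59 and 6.64 with azacytidine. The groups overlapped, and the difference of 0.51 (95% interval -0.36 to 1.38; adjusted p = 0.37) was not called. Among 35 genes of DNA methylation and chromatin silencing, 4 were higher and 2 lower, shares below the 18.2% and 11.1% of all probe sets. The higher count was 1 or 2 without mutant 4, mutant 6, azacytidine 5 or azacytidine 6, and the lower count was 0 or 1 without mutants 3 or 6, azacytidine 1, 2, 5 or 6, or controls 4 or 8. kdm1a, a histone demethylase, was 6.53, 7.09 and 6.74 in mutants, against 5.31, 5.81, 5.34 and 5.27 with azacytidine and 6.10 to 7.16 in controls (1.35 ± 0.27). Its mutant levels lay among the controls and its azacytidine levels below both.

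mbd3b, of a methyl-CpG binding protein family, was 8.74, 8.36 and 8.50 in mutants, against 5.86, 6.64, 5.86 and 5.74 with azacytidine. Controls spread from 6.20 to 9.97, and the call (2.51 ± 0.73) was lost without any 1 of mutants 3, 4 and 6 and azacytidine 1 and 5. dnmt3bb.2, a de novo DNA methyltransferase, was 4.57, 4.98 and 4.32 in mutants, against 5.52, 5.18, 5.04 and 5.36 with azacytidine and 4.27 to 4.74 in controls. Its call (-0.65 ± 0.21, adjusted p = 0.039) was lost without mutant 3, mutant 6, azacytidine 1, azacytidine 2 or azacytidine 6. The fit of 2 groups, without the controls, did not call it either.

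Of 28 liver transcription factors, 4 were lower, near the 11.1% of all probe sets, and 1 higher, which became 2 without mutant 3 or control 4, and the median was -0.20. foxa1, a pioneer factor of liver genes, was 7.97, 7.52 and 6.98 in mutants, against 9.11, 9.28, 9.30 and 9.04 with azacytidine and 8.92 to 9.82 in controls (-1.69 ± 0.29). nr1h3, the sterol-sensing liver X receptor, differed by -1.64 ± 0.26, hnf4b by -1.73 ± 0.35, and hhex, needed for liver budding, by -1.38 ± 0.36, with its call lost without mutant 6. The higher gene, rarga, a retinoic acid receptor, was 7.44, 7.78 and 7.63 in mutants, against 5.04, 5.32, 5.15 and 5.17 with azacytidine. Controls lay at 5.30 to 6.78, below the mutants, and the difference was 2.45 ± 0.31.

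**Figure D4:**
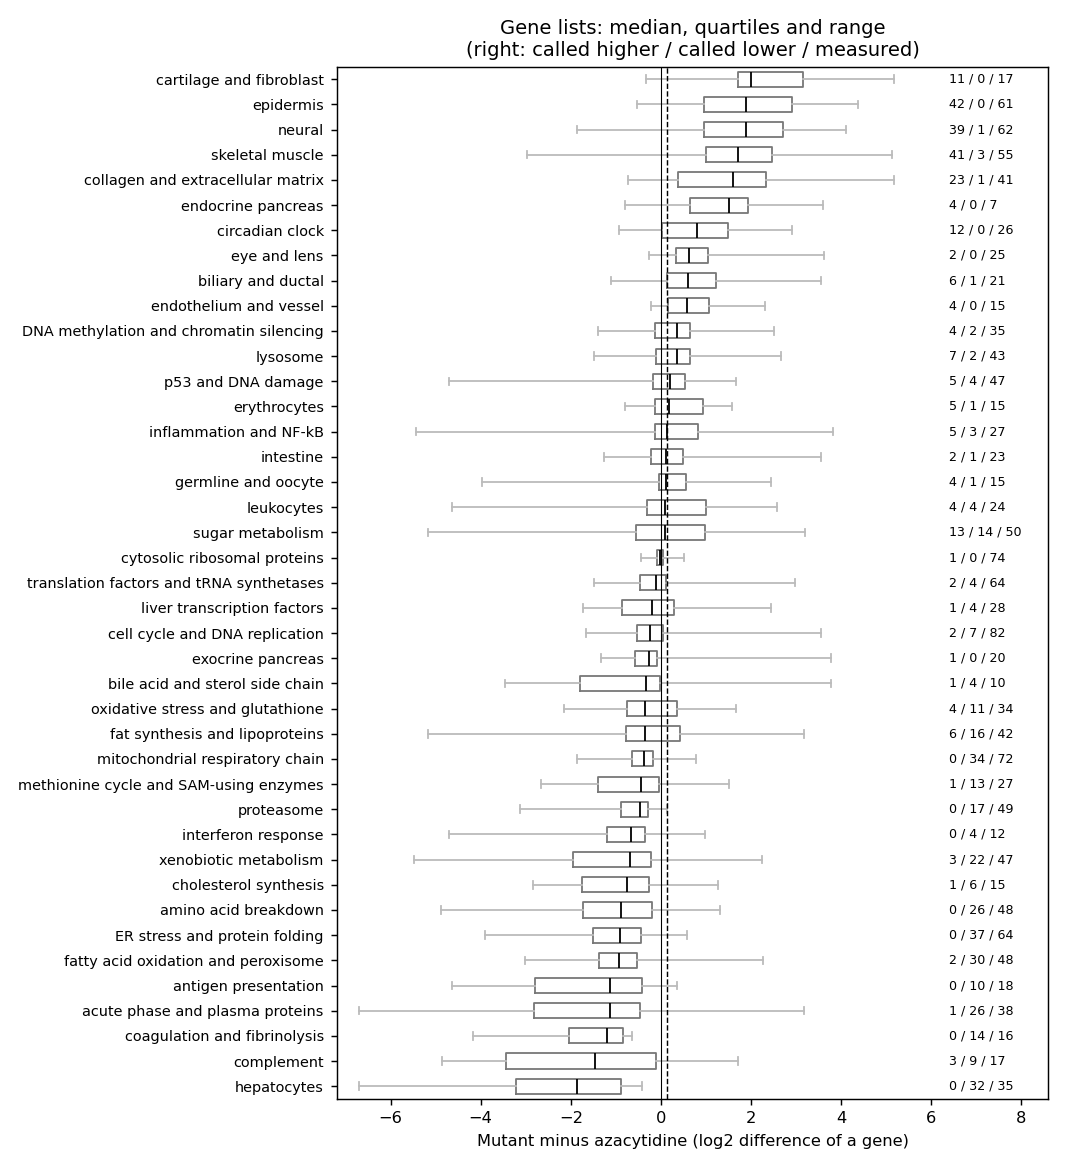
Mutant minus azacytidine difference (x axis, log2, 1 value per gene) for 41 gene lists, sorted by median: box for quartiles, bar for median, whiskers for the full range, dashed line for the median of all probe sets. The numbers on the right count genes called higher, called lower and measured, and run from 11, 0 and 17 for cartilage and fibroblast to 0, 32 and 35 for hepatocytes. On centred arrays the medians of inflammation, sugar metabolism, p53, germline, leukocytes, erythrocytes and intestine fall below 0, and that of cytosolic ribosomal proteins turns positive after loess.

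A separate group of genes was high with azacytidine, with mutants nearer the controls, among them some interferon targets and antigen presentation genes. isg15, the ubiquitin-like protein that interferon induces, was 3.69, 5.72 and 4.87 in mutants, against 7.14, 10.07, 9.97 and 10.70 with azacytidine and 3.33 to 3.72 in controls. All azacytidine arrays lay above the other groups, array 1 least. The difference was -4.71 ± 0.70 (adjusted p = 0.00074), or -5.49 without azacytidine 1 and -4.18 without mutant 3. irf1b, an interferon regulatory factor whose probes may be shared with other transcripts, was 6.14, 6.47 and 6.83 in mutants, against 7.06, 10.35, 11.32 and 11.17 with azacytidine and 5.49 to 6.34 in controls. Azacytidine 1 lay just above the mutants, and the difference was -3.50 ± 0.80, or -4.47 without that array and -3.05 without azacytidine 5.

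Of 12 interferon response genes, 4 were lower in mutants and 0 higher (median -0.67), and 8 were not called. Among all probe sets 11.1% were lower and 18.2% higher. The 4 lower ones became 2 without mutant 3, mutant 6 or azacytidine 2, nearer that share. irf9 (-1.34 ± 0.46; adjusted p = 0.046) lost its call without mutants 3 or 6, azacytidine 2, 5 or 6, or controls 1 or 2, and trim25 (-0.71 ± 0.21) without mutant 3, mutant 6 or azacytidine 2. Not all interferon targets divided the groups. gbp1, a guanylate-binding protein, was 10.74, 9.39 and 9.25 in mutants, against 8.46, 8.32, 9.47 and 8.98 with azacytidine, and both groups lay above all controls, at 4.30 to 6.93. Its difference of 0.99 was not called (95% interval -0.34 to 2.31; adjusted p = 0.25).

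Of 18 antigen presentation genes, 10 were lower in mutants and 0 higher, with a median of -1.13. With the marker covariate 0 of the 18 were called (median -1.26), and 0 of the 12 interferon genes (median -0.58). cd74a, the invariant chain of MHC class II, was 4.56, 5.49 and 4.99 in mutants, against 8.2, 9.37, 10.18 and 10.87 with azacytidine and 4.22 to 4.6 in controls (-4.64 ± 0.50). cd74b, its relative, was 4.42, 4.54 and 5.72 in mutants, against 7.53, 8.82, 9.57 and 10.12 with azacytidine and 4.51 to 5.11 in controls (-4.12 ± 0.53). The mutants overlapped the control range in both genes. b2m, beta-2-microglobulin of MHC class I, was 6.08, 7.19 and 7.10 in mutants, against 8.71, 10.47, 10.92 and 10.94 with azacytidine and 5.09 to 6.20 in controls (-3.47 ± 0.53). erap1b, which trims peptides for class I, differed by -1.22 ± 0.22.

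The proteasome activator subunits that interferon induces moved with them. psme2 was 5.46, 6.4 and 6.23 in mutants, against 7.28, 9.08, 9.85 and 10.44 with azacytidine and 6.13 to 6.79 in controls. Its difference was -3.13 ± 0.59, or -3.76 without azacytidine 1 and -2.71 without azacytidine 6. psme1 was 4.97, 6.16 and 6.29 in mutants, against 6.70, 8.66, 9.45 and 9.58 with azacytidine. Its difference was -2.79 ± 0.62, or -3.42 without azacytidine 1 and -2.37 without mutant 3. Azacytidine 1 was again the lowest of its group in both. Of 49 proteasome genes in all, 17 were lower and 0 higher, with a median of -0.46, where 11.1% of all probe sets were lower and 18.2% higher. The lower count was 8 without mutant 6 and 10 without azacytidine 5. The core subunits psma2a (-1.22 ± 0.19) and psmb6 (-1.07 ± 0.25) differed by less than the activators.

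Marker levels of immune cells did not divide mutants from azacytidine in this way. The mean of 24 leukocyte genes was 6.4, 7.03 and 6.89 in mutants, against 6.39, 6.81, 7.03 and 6.94 with azacytidine and 5.94 to 6.38 in controls, so the groups overlapped. In that list 4 genes were higher and 4 lower, where 18.2% and 11.1% of all probe sets were. The list median was 0.09, which was -0.13 after centring and -0.11 after loess. The 4 lower ones include cd74a and cd74b, which stand in the antigen presentation list too. Higher were coro1a, a leukocyte actin regulator (1.91 ± 0.35), although another of its probe sets, at -0.47, was not called, and laptm5, a lysosomal protein of leukocytes (1.56 ± 0.40). cxcr4b, a chemokine receptor, was 4.95, 6.78 and 6.76 in mutants, against 3.16, 3.97, 3.60 and 4.18 with azacytidine. Its difference was 2.44, or 3.04 without mutant 3, 2.13 without mutant 4 and 1.95 with low levels set at the 10th percentile.

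mpx, the myeloperoxidase of neutrophils, was 7.47, 7.61 and 5.38 in mutants, against 8.63, 9.88, 10.30 and 10.38 with azacytidine and 9.65 to 10.69 in controls (-2.98 ± 0.55, and -2.26 without mutant 6). Another probe set of mpx was called in the opposite direction, at 1.17 ± 0.34 (adjusted p = 0.023), so no direction is given for this gene.

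Of 27 genes of inflammation and NF-kB, 5 were higher and 3 lower, shares near the 18.2% and 11.1% of all probe sets, with a median of 0.13, which was -0.09 after centring and 0.02 after loess. nfkb2, a subunit of NF-kB, was 5.74, 6.67 and 6.25 in mutants, against 7.17, 8.38, 8.69 and 8.74 with azacytidine and 5.0 to 5.76 in controls (-2.02 ± 0.38). ccl19a.1, a chemokine gene, was 5.13, 4.69 and 4.92 in mutants, against 9.0, 9.57, 11.35 and 11.48 with azacytidine. The controls, at 7.72 to 8.78, lay between the groups, and the difference was -5.44 ± 0.56. saa, serum amyloid A, differed by -0.88 ± 0.21, with levels of 4.19 to 4.69 in mutants, against 4.82 to 5.44 with azacytidine.

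Of the 5 higher genes of that list, 2 belong to the inflammasome and 2 are chemokine genes. pycard, the adaptor that assembles inflammasomes, was 7.29, 9.53 and 10.14 in mutants, against 5.26, 6.11, 6.14 and 5.53 with azacytidine and 5.70 to 6.17 in controls. Mutant 3 was the lowest of its group and above every azacytidine and control array. The difference was 3.23 ± 0.54, or 4.08 without mutant 3 and 2.65 without mutant 6. caspb, an inflammatory caspase of fish, was 7.01, 6.74 and 7.28 in mutants, against 3.85, 5.78, 4.70 and 5.15 with azacytidine and 4.62 to 5.55 in controls (2.14 ± 0.40). Azacytidine and controls overlapped in both genes. The chemokine gene cxl34b.11 was 7.48, 8.90 and 10.42 in mutants, against 4.14, 5.98, 4.89 and 5.41 with azacytidine (3.83 ± 0.62), and 3.09 without mutant 6 and 4.56 without mutant 3. cxcl12a, the ligand of Cxcr4 receptors, was 10.13, 9.60 and 10.48 in mutants, against 6.03, 7.68, 7.99 and 7.52 with azacytidine, and control 8, at 9.72, reached the mutant range (2.77 ± 0.65). The epidermis list mean was also highest in mutants, and its part in these values was not tested.

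**Figure D5:**
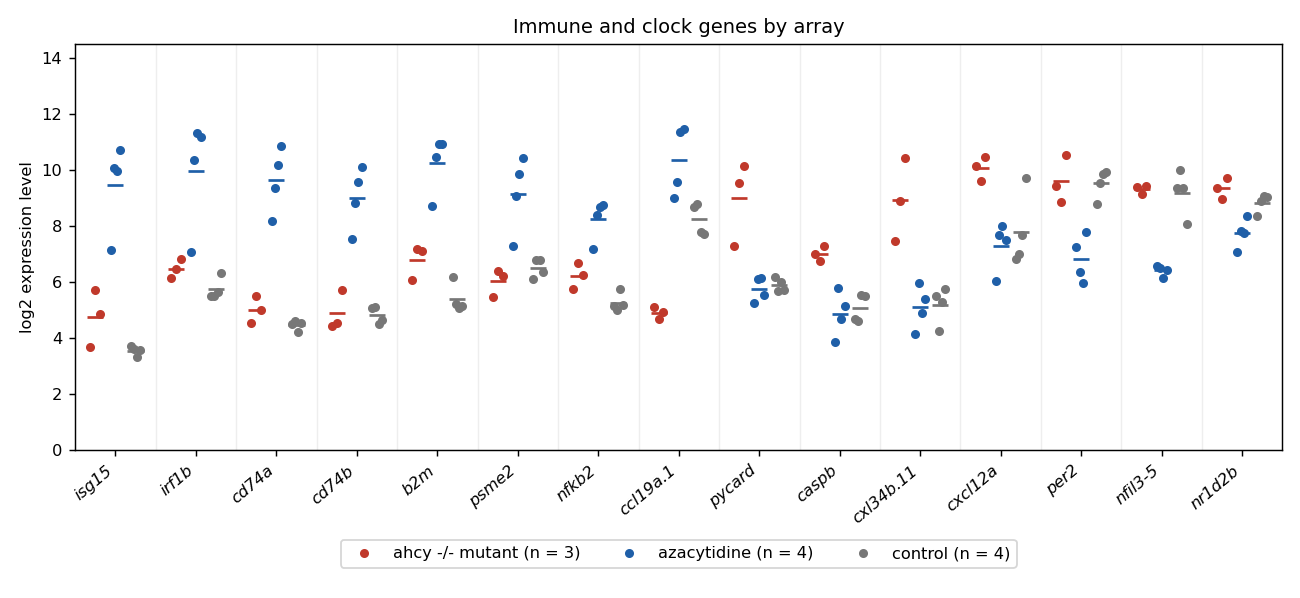
Log2 level (y axis) of 15 immune and clock genes, 1 point per array and bars at group means, with mutants in red, azacytidine in blue and controls in grey. From isg15 to ccl19a.1 azacytidine has the highest group mean, from pycard to cxcl12a mutants have it, and for per2, nfil3-5 and nr1d2b the azacytidine mean lies below those of mutants and controls.

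Clock genes were low with azacytidine and near the control level in mutants. Of 26 circadian clock genes, 12 were higher in mutants than with azacytidine and 0 lower, with a median of 0.79. per2, a light-responsive repressor of the clock, was 9.44, 8.87 and 10.54 in mutants, against 7.24, 6.37, 5.97 and 7.80 with azacytidine and 8.79 to 9.94 in controls (2.77 ± 0.50; adjusted p = 0.0020). nfil3-5, of a family of clock output factors, was 9.41, 9.15 and 9.42 in mutants, against 6.56, 6.52, 6.16 and 6.43 with azacytidine and 8.07 to 10.01 in controls (2.91 ± 0.38). nr1d2b, a nuclear receptor that represses clock genes, was 9.36, 8.97 and 9.73 in mutants, against 7.06, 7.81, 7.76 and 8.37 with azacytidine and 8.36 to 9.08 in controls (1.6 ± 0.33). Mutants overlapped controls in all 3 genes. csnk1db, a kinase that marks period proteins for decay, differed by 1.12 ± 0.20. Time of dissection is not given per sample. With the marker covariate 0 of the 26 were called (median -0.12), where 14 of all 12784 probe sets were. That count is thus not particular to clock genes.

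Among the largest differences with mutants higher were genes known from skeleton and muscle. col10a1a, a collagen of hypertrophic cartilage and bone-forming cells, was 9.99, 10.58 and 11.65 in mutants, against 5.28, 6.89, 5.33 and 4.74 with azacytidine and 7.26 to 8.2 in controls (5.18 ± 0.51). Every control lay between the groups. myog, the muscle differentiation factor myogenin, was 10.13, 9.24 and 9.62 in mutants, against 4.29, 5.21, 4.08 and 4.52 with azacytidine and 5.16 to 6.51 in controls (5.14 ± 0.38). The mutant arrays lay above every control as well. myod1, another myogenic factor, was 6.45, 5.65 and 6.4 in mutants, against 3.76, 3.78, 3.67 and 3.2 with azacytidine, a difference of 2.56, or 1.95 with low levels set at the 10th percentile.

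Mature muscle genes were higher too, among them tmem38a, a channel of the sarcoplasmic reticulum (3.63 ± 0.40), pvalb3, a parvalbumin (3.31 ± 0.31), and ttn.2, a titin gene (3.76 ± 0.46). The muscle list also had 3 lower members, of which xirp2a, an actin-binding repeat protein, was 5.65, 6.13 and 5.37 in mutants, against 8.63, 8.78, 8.74 and 8.63 with azacytidine and 7.58 to 8.21 in controls (-2.98 ± 0.26). This gene ran against its list on every array.

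Epidermal genes were higher in mutants, and the mutant arrays differed among themselves. Of the genes given here, tcnbb and fxyd11 are not on the epidermis list and were named for the size of their differences. lye, an epidermal Ly6-type gene, was 5.95, 9.92 and 11.15 in mutants, against 4.49, 4.69, 4.87 and 4.48 with azacytidine and 4.16 to 6.75 in controls (4.37 ± 0.97). cfl1l, a cofilin gene, was 7.66, 10.93 and 12 in mutants, against 5.77, 6.54, 5.64 and 6.18 with azacytidine (4.16 ± 0.76). tcnbb, of the cobalamin-binding proteins, was 9.38, 12.40 and 11.89 in mutants, against 4.73, 6.66, 6.87 and 6.06 with azacytidine, and control 1, at 9.97, lay above mutant 3 (5.14 ± 1.11). Mutant 3 was the lowest of its group in these 3 genes, and without it the differences were 5.90, 5.43 and 6.07. Without mutant 6 those of lye and cfl1l were 3.30 and 3.26, and without mutant 4 that of tcnbb was 4.56. cldne, a claudin of tight junctions, was more even, at 8.79, 9.13 and 9.65 in mutants, against 3.66, 5.85, 5.17 and 5.59 with azacytidine (4.12 ± 0.45). fxyd11, a regulator of the sodium pump, was 10.37, 10.61 and 11.76 in mutants, against 5.38, 7.87, 6.11 and 6.52 with azacytidine (4.44 ± 0.61).

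Keratins and their partners followed, with krt4 (3.33 ± 0.48) and krt15 (2.96 ± 0.34), the annexin gene anxa1c (3.26 ± 0.40) and pkp1b, a plakophilin of desmosomes (2.94 ± 0.34). Of 41 collagen and extracellular matrix genes, 23 were higher and 1 lower (0 without mutants 3 or 6 or azacytidine 1, 2 or 6), with a median of 1.6. col1a2, of type I collagen, was 10.28, 11.64 and 12.38 in mutants, against 6.87, 8.84, 7.80 and 7.68 with azacytidine (3.64 ± 0.56). timp2a, an inhibitor of matrix proteases, differed by 2.32 ± 0.33 and crtap, of the collagen prolyl hydroxylation complex, by 1.66 ± 0.24. With the marker covariate 0 of the 41 were called (median -0.14), where 14 of all 12784 probe sets were.

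In neural genes the control arrays spread widely. sncb, beta-synuclein, was 9.45, 10.69 and 10.46 in mutants, against 5.67, 7.02, 6.06 and 5.58 with azacytidine and 8.34, 6.48, 11.58 and 10.75 in controls (4.12 ± 0.96). Another of its probe sets, at 1.83, was not called. sypa, synaptophysin, was 7.93, 7.85 and 8.08 in mutants, against 4.53, 4.25, 4.27 and 4.29 with azacytidine and 6.16, 5.19, 8.68 and 7.91 in controls (3.62 ± 0.63). Controls 4 and 8 lay within or above the mutant range in both genes, and all controls lay above azacytidine in sypa.

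cdk5r2a, an activator of a neuronal kinase, differed by 4.00 ± 0.90 (4.71 without mutant 3 and 3.54 without mutant 6). fstl5, a follistatin-like gene, differed by 4.07 ± 0.97 (3.16 without mutant 3 and 4.58 without mutant 6) and insm1b, a factor of neuroendocrine cells, by 3.83 ± 0.71. rtn1a, a reticulon, differed by 2.33 ± 0.36, id4 by 2.91 ± 0.49 and pcsk1nl, a prohormone convertase inhibitor, by 3.61 ± 0.68. pcsk1nl is on the endocrine pancreas list and not on the neural one. Of 7 measured endocrine pancreas genes, 4 were higher and 0 lower (median 1.52), where 18.2% and 11.1% of all probe sets were. With the marker covariate 0 of the 62 neural genes were called, and the median was -1.37. The 62 genes are themselves part of the covariate, so the loss of their calls is built in and is no separate evidence. cdk5r2a, fstl5, insm1b and pcsk1nl are on none of the lists behind the covariate, and their calls were lost too. Only 14 of all 12784 probe sets were called in that fit, so this loss is not particular to these genes.

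Among large complexes, the counts for ribosomal proteins depended on the scaling, while respiratory chain genes were more often lower than higher under each scaling. Of 74 cytosolic ribosomal protein genes, 1 was higher and 0 lower, with a median of -0.03; after centring 24 were lower, and after loess 19 were higher. The called gene, rplp2, a stalk protein of the ribosome, was 13.34, 13.15 and 13.05 in mutants, against 12.59, 12.69, 12.72 and 12.64 with azacytidine (0.52 ± 0.08). Of 72 genes of the mitochondrial respiratory chain, 34 were lower and 0 higher, with a median of -0.38 that was -0.59 after centring and -0.29 after loess. The lower count was 22 without mutant 6, 52 after centring and 24 after loess. ndufb9, of complex I, was 9.07, 9.62 and 9.94 in mutants, against 11.19, 10.91, 11.46 and 10.72 with azacytidine and 10.95 to 11.14 in controls (-1.53 ± 0.23). Of 82 cell cycle genes, 2 were higher (4 without control 4) and 7 lower, where 18.2% and 11.1% of all probe sets were. The lower count was 3 without mutant 6, 4 without azacytidine 1 or 2, 17 after centring and 15 after loess.

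The 7276 genes with a gene name were sorted by where the controls lay, as a description without a test. For 62 genes the control arrays all lay between higher mutant and lower azacytidine arrays, and for 86 between lower mutant and higher azacytidine arrays. Both groups lay above all controls for 40 genes and below all controls for 26, again of 7276. How many such genes arise from the order of arrays alone was not tested. Since these counts are fixed by ranges that do not overlap, their calls are no separate evidence. tdrd5, a Tudor gene of the germline, was lower in mutants, at 3.51, 3.83 and 3.72, against 8.07, 7.63, 7.33 and 7.62 with azacytidine. Controls 1, 2 and 8, at 6.21 to 6.25, lay between the groups, and control 4, at 3.79, within the mutant range. Its difference was -3.98, or -3.22 with low levels set at the 10th percentile. sycp1, of the meiotic synaptonemal complex, was higher in mutants, at 7.98, 7.0 and 8.32, against 4.93, 5.72, 5.54 and 6.03 with azacytidine (2.21 ± 0.34). tcimb was 10.38, 10.25 and 8.62 in mutants, against 5.91, 5.71, 7.15 and 6.11 with azacytidine, with all controls between them, at 7.50 to 8.33 (3.53 ± 0.46).

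Among genes that lay above all controls in both groups, some still differed between them. lemd1 was 7.69, 9.01 and 7.98 in mutants, against 10.09, 10.93, 10.08 and 9.75 with azacytidine and 5.10 to 7.12 in controls (-1.99 ± 0.49). bmb was 5.51, 5.99 and 5.74 in mutants, against 6.92, 7.86, 6.55 and 6.98 with azacytidine and 4.11 to 4.56 in controls (-1.33 ± 0.28). Both genes were higher with azacytidine than in mutants without overlap. furina, of the furin proprotein convertases, was 8.93, 7.52 and 8.66 in mutants, against 6.33, 7.29, 6.65 and 7.71 with azacytidine. Its groups overlapped, and the call (1.38 ± 0.43) was lost without mutant 3, mutant 6, azacytidine 1 or azacytidine 5. Centring or no moderation removed that call as well.

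Of the 40 genes above all controls in both groups, 8 were called in either direction, and of the 26 below, 1, where 29.4% of all probe sets were. For the other such genes named here, no difference was called. ms4a17a.11 was 8.12, 8.22 and 8.57 in mutants, against 7.79, 8.84, 8.79 and 7.77 with azacytidine and 6.62 to 7.28 in controls, a difference of 0.01 (95% interval -0.71 to 0.72). Below all controls, kalrnb was 8.31, 7.66 and 7.62 in mutants, against 7.88, 7.85, 7.70 and 8.03 with azacytidine and 8.48 to 8.91 in controls (interval -0.54 to 0.53). ap1g1, of a clathrin adaptor, was 4.99 to 5.32 in mutants, against 4.74 to 5.30 with azacytidine and 5.51 to 6.46 in controls (0.10, interval -0.45 to 0.65). tnpo2a, a nuclear import receptor, differed by 0.43 (interval -0.47 to 1.34), and trim9, at the low end of the scale in both groups, by 0.50 (interval -0.46 to 1.46).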

How the data were processed

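RNA from dissected livers was amplified in 2 rounds and hybridised to 1-colour Affymetrix zebrafish arrays, per the labels' protocols, which name both biotin and Cy3. The deposited values are log2 levels, 1 per probe set and array, made by the authors; the submitters' processing notes name GCRMA and Partek. GCRMA subtracts background, so low levels are uncertain, and it normalises across arrays. Whether the authors filtered probe sets is not stated.

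Of 12830 probe sets, 46 array controls were left out and 12784 tested. The platform annotation gave 8994 of them 1 gene symbol, 110 several and 3680 none; only the first were named. Gene IDs matched current symbols for 8926 and changed 1. Several probe sets measured 982 of the 7792 genes, and the one brightest on average over all arrays stands for its gene. For 719 probe sets the name marks possible sharing of probes, and 7 genes had probe sets called in opposite directions. Detection calls were not used. A named gene whose levels in a group all fell under the 10th percentile of each array has a bound beside its difference, with such levels raised to that percentile.

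All 11 arrays were fitted with limma 3.58.1 in R 4.3.3 as 3 group means (8 residual degrees of freedom), with a mean-dependent variance trend, tested 2-sided for mutant minus azacytidine and adjusted by Benjamini-Hochberg over all probe sets. The fit was run on simulated arrays with independent noise and far fewer changed probe sets than were called here. That run does not bear on shifts shared by many genes. The small number of arrays limits the precision. The groups, the 41 gene lists (13 of cell types, 28 of pathways, 1515 measured entries) and the naming rule were chosen with earlier results of these data known. The rule named ahcy and dnmt1, the 12 largest called differences per direction without overlap, up to 4 called members per list and direction (or the 2 largest), and up to 5 genes by each position relative to controls; unnamed loci were passed over, and the text names a part of the list members. Alternatives were other variance priors, fits of 2 groups, centring, loess, a filter on dim probe sets, averages per gene, array weights, the sample number as a block, a marker covariate, a minimum change of 1, no moderation and leaving out each array.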

Additional observations from a re-analysis of the deposited data

Results flagged for a closer look

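Of 358 groups of 4 arrays looked at, 25 held an array far from the other 3, where chance alone gives about 1 in 20. Most lie in azacytidine arrays, 15, and 10 in controls; groups of 3 mutants were not looked at. In azacytidine array 1, mccc2 was high at 11.38, gnmt at 11.05 and sypa at 4.53, while erap1b was low at 5.57, anxa1c at 6.54 and the mean of the inflammation and NF-kB list at 6.94. In azacytidine array 2, kdm1a (5.81), mbd3b (6.64) and krt15 (9.25) were high. In azacytidine array 5, the mean of the proteasome list was high at 8.64. In azacytidine array 6, kng1 (11.09) and ces2a (11.66) were low, and csnk1db (10.51) and the means of the exocrine pancreas list (6.93) and the intestine list (7.49) were high.

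Among controls, array 1 was low for myog (5.16) and pvalb3 (5.82) and high for b2m (6.20). Control 2 was high for cfd (7.02) and low for lman1 (9.32) and ahcyl1 (8.37). Control 4 was low for c3a.1 (6.95), hnf4b (7.93) and tdrd5 (3.79) and high for trim9 (6.51).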

How the results depend on the processing

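The counts of 2329 higher and 1424 lower probe sets were within 1.5 times under other variance priors, the fit of 2 groups, centring, loess, array weights, the filter on dim probe sets, the random block and no moderation, with 1629 to 2875 higher and 1246 to 2068 lower. Averaging probe sets per gene gave 1378 higher and 1042 lower, of 7792 genes. Testing against a minimum change of 1 gave 171 higher and 207 lower. Leaving out 1 array at a time gave 1408 to 2500 higher and 912 to 1419 lower, both lowest without mutant 6. Mutants and azacytidine share only the sample number 6, and nothing in the labels says that a number pairs samples. With the sample number as a fixed replicate block, which leaves 2 residual degrees of freedom, 82 were higher and 137 lower; as a random replicate block, 2309 and 1429. With the marker covariate 0 were higher and 14 lower.

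Of 138 genes named from the fit, 131 were called, of which 119 kept their call and 131 their sign in each fit without 1 array. Centring removed the calls of gadd45ab and furina, loess that of gadd45ab, and the fit of 2 groups those of dnmt3bb.2 and gadd45ga. Array weights removed that of ahcyl1 and averages per gene that of cav1. No moderation removed those of cfd, mbd3b, gadd45ab, gadd45ga, irf9 and furina. With the fixed replicate block 42 kept their call. With the covariate 5 kept it, and 6 had the opposite sign: sncb (-1.74), cdk5r2a (-1.91), mbd3b (-1.75), hk1 (-0.33), gadd45ab (-0.045) and hhex (0.14). Genes of the neural, muscle and epidermis lists, such as sncb, are part of the covariate that they were fitted with. Genes not called also turned: with the covariate dnmt1 (-0.37), trim9 (-1.28) and kalrnb (0.71), with the fixed replicate block dnmt1 (-0.18) and trim9 (-0.12), after centring ms4a17a.11 (-0.21) and ap1g1 (-0.12), after loess ms4a17a.11 (-0.13) and ap1g1 (-0.10), and with array weights ms4a17a.11 (-0.16). Without 1 array, ms4a17a.11 ran from -0.17 to 0.19 and kalrnb from -0.23 to 0.12. The cause of these changes was not tested. The bound for low levels and the list counts without single arrays were added after the data were seen.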

Other observations

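Of 34 genes of oxidative stress and glutathione, 4 were higher and 11 lower in mutants than with azacytidine (median -0.34). Among all probe sets 18.2% were higher and 11.1% lower. txnb, a thioredoxin, was 9.13, 8.68 and 8.02 in mutants, against 9.71, 10.57, 10.41 and 10.30 with azacytidine and 7.40 to 8.52 in controls (-1.64 ± 0.36). Its azacytidine arrays lay above every array of the other groups. Of 43 lysosome genes, 7 were higher and 2 lower, where 18.2% and 11.1% of all probe sets were. The higher count was 3 without mutant 6, azacytidine 1 or azacytidine 5, and the lower count 1 without mutant 4, mutant 6, azacytidine 5 or azacytidine 6. hbbe2, an embryonic globin of red cells, was 13.17, 12.74 and 12.30 in mutants, against 10.82, 11.62, 11.93 and 11.46 with azacytidine and 11.52 to 12.25 in controls (1.28 ± 0.27). cav1, a protein of caveolae that is abundant in vessels and whose probes may be shared with other transcripts, was higher by 1.49 ± 0.27, while 3 other probe sets of it were not called. gadd45ab and gadd45ga, stress genes of the DNA methylation list, went opposite ways, at 1.05 ± 0.32 and -1.39 ± 0.48. The call of gadd45ab was lost without mutants 4 or 6 or azacytidine 5 or 6, and that of gadd45ga without mutants 3 or 6, azacytidine 2, 5 or 6, or controls 4 or 8. Centring, loess or no moderation also removed the call of gadd45ab, and the fit of 2 groups or no moderation that of gadd45ga.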
